A study of Mus musculus with 6 samples.

Results

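Dentate neuroepithelium was compared between 2 libraries from mice with 1 floxed Sox11 allele (SOX11f/+, labelled haplodeficient and called heterozygous here) and 2 libraries from wild type mice (WT), all at embryonic day 14. These are 4 of the 6 RNA-seq libraries of the series. The other two carried the homozygous genotype (SOX11f/f, labelled homodeficient), and they entered the fit only to help estimate the spread. Libraries were chosen by their genotype label and genes by a mean of at least 1 TPM (a transcript level scaled for length and to the same total in every library) over the 4 libraries, which kept 14466 of the 35274 rows of the deposited table.

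The source is labelled mouse brain, and the sources used here name no Cre driver and do not say whether a wild type embryo carried any other allele. They also do not say that the libraries of a genotype came from separate embryos. The p-values therefore measure only how far these libraries spread, and that spread may be technical.

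Sox11 is a transcription factor of the SoxC group, with Sox4 and Sox12, and is known for its part in the differentiation and survival of new neurons. The dentate neuroepithelium lies in the medial wall of the early hippocampus beside the cortical hem, which gives rise to the choroid plexus, and its progenitors produce the granule neurons of the dentate gyrus. Motile cilia are built by ependymal and choroid plexus cells from an axoneme of microtubule doublets, dynein arms, radial spokes and a central pair, and their genes are switched on by factors such as Foxj1 and the RFX proteins.

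The 4 libraries had from 18722 to 19035 rows above 0, and TPM keeps no sequencing depth, so the depth behind each value is unknown. On log2(TPM + 1) the wild type libraries correlated at 0.984 across the tested genes and the heterozygous libraries at 0.97. Both correlations are taken across genes, and genes do not replicate each other. The number of tested genes that differed by at least 2-fold on TPM + 1 was 219 between the wild type libraries and 589 between the heterozygous libraries. Markers of the labelled tissue were present in every library, among them Prox1, a granule lineage factor, at 175 and 110.5 TPM and, in the heterozygous libraries, 54.3 and 82.01 TPM, and Reln, made by Cajal-Retzius cells, at 532 and 267 TPM against 197 and 208 TPM. Gfap, an intermediate filament of astrocytes that is known mainly from later stages of brain development, stood at 304 and 268 TPM against 352 and 335 TPM. Hbb-y, a globin of embryonic red cells, was listed at 0 in all 4 libraries. The stage is given as labelled, and whether the tissue matched it was not tested. One large difference lay inside the heterozygous group. Ttr, the transthyretin gene that defines choroid plexus epithelium, was listed at 3.07 and 2.04 TPM for wild type, but heterozygous replicates 1 and 2 were listed at 11259 and 4.44 TPM. Every value below is therefore given for all 4 libraries, wild type replicates 1 and 2 against heterozygous replicates 1 and 2, in that order.

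Sox11 itself was lower in both heterozygous libraries. Sox11 has 1 exon and lies on chromosome 12 (27334264 to 27342574, minus strand, GRCm38). Wild type replicates 1 and 2 gave 192 and 130.2 TPM, and heterozygous replicates 1 and 2 gave 56.1 and 50.1 TPM. The groups did not overlap, and the highest heterozygous library lay below the lowest wild type library. The log2 difference was -1.56 (SE 0.19) on the log2(TPM + 1) scale, with a limma adjusted p of 0.105 after Benjamini-Hochberg adjustment over all 14466 genes, short of the threshold of 0.05. The wild type libraries differed from each other more than the heterozygous ones did. Without the second heterozygous library the log2 difference was -1.48, and without the first it was -1.64. Neither of these fits holds a heterozygous replicate, so they do not measure spread within that group. Sox4, the SoxC relative that is co-expressed in new neurons, stood at 297 and 215 TPM against 233 and 201 TPM, and its groups overlapped. For Sox12, the third of the group, the values were 63.9 and 62.3 TPM against 57.98 and 54.3 TPM, a log2 difference of -0.17 with an adjusted p of 0.547 by limma.

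Across all tested genes, 4 were higher (0.0277%) and 1 was lower (0.00691%) in heterozygous tissue at a limma adjusted p under 0.05, or 5 genes in all (0.0346%). At an unadjusted p under 0.05 there were 2026 genes, 14% of those tested. Most of what follows is described by whether the 4 values overlap. Both heterozygous libraries lay above both wild type libraries for 2444 genes (16.9%) and below both for 4203 genes (29.1%). The gap between the groups reached 1.5-fold on TPM + 1 for 316 genes in the upward direction (2.18%) and for 40 in the downward direction (0.277%). The median log2 difference of all tested genes was -0.06. Names that the annotation treats as pseudogenes, or that are clone or predicted-gene symbols, made up 40 of the 316 and 20 of the 40.

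Of the 5 genes that passed, 2 were in the motile cilia lists, 1 was a myosin and 2 were ribosomal pseudogenes. Ccdc153, a coiled-coil gene of the motile axoneme on chromosome 9 (44240676 to 44247306), rose. Its values were 0.59 and 0 TPM in wild type replicates and 56.5 and 36.9 TPM in heterozygous ones. Its log2 difference was 5.21 (SE 0.29, limma adjusted p = 0.00301). Tmem212, a transmembrane gene of multiciliated cells on chromosome 3 (27866066 to 27896368), was at 0 in wild type replicates 1 and 2 and rose to 21.1 and 11.2 TPM, with a log2 difference of 4.04 and an adjusted p of 0.0121 by limma. In both of these genes every heterozygous value was far above every wild type value, and the 2 heterozygous libraries lay within 2-fold of each other. Myo7a, an unconventional myosin of hair cell stereocilia on chromosome 7 (98051060 to 98119524), rose from 0.85 and 0.55 TPM to reach 21.3 and 14.1 TPM (log2 difference 3.44, limma adjusted p = 0.0494). When wild type replicate 1 was left out, 4 of the 5 genes no longer passed. The limma adjusted p became 0.0507 for Ccdc153, 0.336 for Tmem212, 0.519 for Myo7a and 0.0507 for Rps13-ps1. The values without wild type replicate 2 were 0.0668 for Ccdc153, 0.179 for Tmem212 and 0.222 for Myo7a, while Gm6472 stayed past the threshold in both cases.

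**Figure D1:**
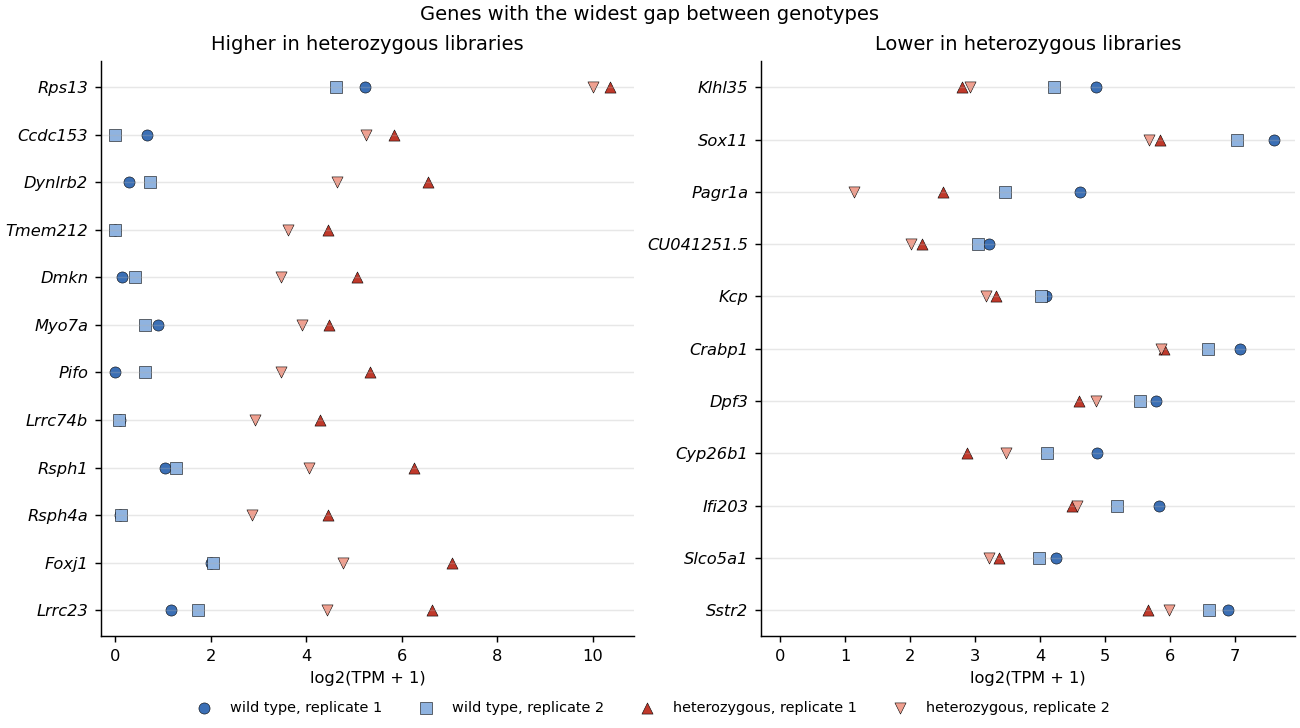
Genes reported among the 12 in each direction with the widest gap between the genotypes, plotted as log2(TPM + 1) for each of the 4 libraries. Blue marks are wild type and red marks are heterozygous. For Foxj1 the heterozygous libraries sit at 131 and 26.4 TPM and the wild type libraries at 3 and 3.14 TPM.

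The remaining calls were 2 pseudogenes of ribosomal proteins. Gm6472, on the X chromosome (152909505 to 152910155), rose from 0.03 and 1.95 TPM to 767 and 824 TPM, a log2 difference of 8.84 (limma adjusted p = 0.00169). Rps13-ps1, on chromosome 8 (87047689 to 87048226), fell from 1197 and 1069 TPM to 11.5 and 9.67 TPM, a log2 difference of -6.61 (limma adjusted p = 0.000465). Each copies a gene for a protein of the small ribosomal subunit. The Gm6472 transcript could be aligned to that of Rps7 over 651 bases with 4 differences (99.39% identity), and Rps13-ps1 to Rps13 over 522 bases with 2 differences (99.62% identity), in the GENCODE vM21 transcripts. Inside the aligned part, reads can be split between the rows of a pair only where the bases differ, so the value of either row is uncertain. The Rps7 transcript has 954 bases and that of Rps13 has 589, so both reach beyond the aligned part. The bases that tell the pairs apart in the coding sequence are shown in windows of 25 bases, 5′ to 3′, with the differing base in capitals. Positions are counted from 1 at the first coding base of the parent gene, and the parent's base comes first.

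Rps7 around T26G: gcgccaagatcgTgaagcccaatgg
Gm6472 around T26G: gcgccaagatcgGgaagcccaatgg
Rps7 around G48A: tggcgagaagccGgacgagttcgag
Gm6472 around G48A: tggcgagaagccAgacgagttcgag
Rps7 around G123T: ggcgcagctgcgGgaactcaacatc
Gm6472 around G123T: ggcgcagctgcgTgaactcaacatc
Rps13 around T411C: ggtgctcccaccTaattggaaatat
Rps13-ps1 around T411C: ggtgctcccaccCaattggaaatat
Rps13 around A429G: gaaatatgagtcAtccacagcctct
Rps13-ps1 around A429G: gaaatatgagtcGtccacagcctct

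The parent genes gave the other side of this picture. Rps13 stood at 36.5 and 23.8 TPM against 1308 and 1035 TPM, the widest upward gap of any gene that is not a pseudogene. Its limma adjusted p was 0.22 in the fit of all 6 libraries, in which the homozygous values were 20.9 and 410.5 TPM, and 0.00178 in a fit of the 4 libraries only. The share of Rps13 in the sum of Rps13 and Rps13-ps1 was 2.96% and 2.18% in wild type and 99.1% in both heterozygous libraries. In the homozygous libraries it was 1.63% and 35.6%, so it did not follow the number of floxed alleles. The sum of the 3 Rps13 rows, Rps13-ps2 included, was 1233 and 1093 TPM for wild type against 1325 and 1106 TPM for heterozygous tissue, and these ranges overlap. Rps7 stood at 1919 and 1958 TPM against 1726 and 1738 TPM, and its sum with Gm6472 was 1919 and 1960.1 TPM against 2494 and 2562 TPM. Gm6472 made up 0.00156% and 0.0995% of that sum in wild type, 30.8% and 32.2% in heterozygous tissue, and 62% and 61.3% in the homozygous libraries. When these near-identical rows were summed before the fit, Rps13 showed a log2 difference of 0.06 (limma adjusted p = 0.847) and Rps7 one of 0.38 (limma adjusted p = 0.252). With that change 2 genes passed in the upward direction and 0 in the downward direction by limma, with 2022 genes at an unadjusted p under 0.05.

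**Figure D2:**
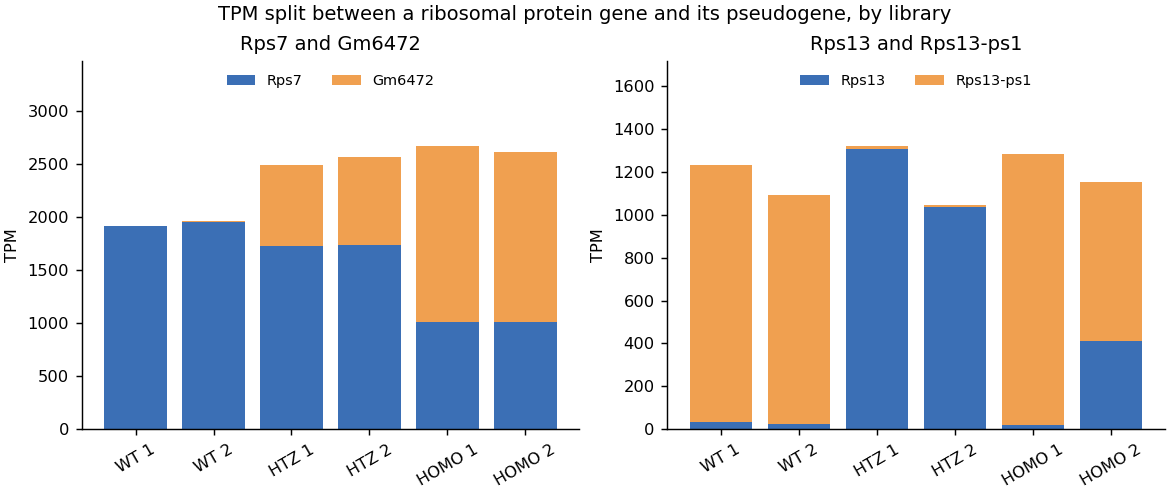
Stacked TPM of each ribosomal protein gene and its pseudogene in all 6 libraries, with Rps7 and Gm6472 on the left and Rps13 and Rps13-ps1 on the right. Nearly all of the Rps13 pair is assigned to Rps13 in both heterozygous libraries (99.1%), while Gm6472 takes 30.8% and 32.2% of its pair there.

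Genes of motile cilia were on the upward side in most cases. In 5 lists of such genes, 150 members were in the table, and 70 of them had a wild type mean under 1 TPM, as 59.8% of all rows did. Both heterozygous libraries lay above both wild type libraries for 125 of the 150 and below both for 5, where 9.63% and 14.3% of all rows of the table did so. A gap of at least 1.5-fold was found upward for 82 and downward for 0, where 0.995% and 0.162% of all rows reached it. Of the listed genes only Ccdc153 and Tmem212 passed the limma threshold. In bulk tissue, more cells of a type and more RNA per cell cannot be told apart.

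Several regulators of the multiciliated cell were low in wild type tissue. Foxj1, the forkhead factor that switches on the motile cilia programme, stood at 3 and 3.14 TPM against 131 and 26.4 TPM, a log2 difference of 3.89 (SE 0.65, limma adjusted p = 0.144). Both heterozygous libraries were well above the nearly equal wild type pair, but they lay several-fold apart from each other. Without the first heterozygous library the log2 difference of Foxj1 was 2.75, and without the second it was 5.02. Mcidas, the upstream coiled-coil regulator of the same programme, was at 0.04 and 0.04 TPM against 4.45 and 1.14 TPM. Gmnc, which acts before Mcidas, was at 0.02 and 0.10 TPM against 3.62 and 0.38 TPM, under 1 TPM in 3 of the 4 libraries. Deup1, which builds the deuterosomes that multiply centrioles, was at 0.28 and 0.48 TPM against 18.7 and 3.89 TPM. Ccno, a cyclin of the same step, was at 0.38 and 0.09 TPM against 12.3 and 1.35 TPM. For Deup1, Ccno and Mcidas all 4 values kept the genotypes apart, with the first heterozygous library the highest. The RFX factors did not share one direction. Rfx2 stood at 2.75 and 2.36 TPM against 9.83 and 4.33 TPM, while Rfx3, abundant in every library, stood at 38.8 and 35.3 TPM against 32.3 and 31.6 TPM with both heterozygous values lower. Of the 19 regulators, 10 lay above wild type in both heterozygous libraries and 3 below, and the median log2 difference of the list was 0.30.

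Dynein arms, the motors of the axoneme, were represented by 25 members, of which 19 lay above wild type in both heterozygous libraries and 2 below (median log2 difference 1.51). Dynlrb2, a dynein light chain, stood at 0.22 and 0.65 TPM against 92.8 and 23.99 TPM, with a log2 difference of 5.09 (limma adjusted p = 0.105). Dnali1, a light intermediate chain of inner arms, stood at 0.21 and 0.24 TPM against 18.8 and 6.23 TPM. Both were under 1 TPM in wild type. Among the outer arm heavy chains, Dnah5 was at 0.29 and 0.36 TPM against 2.80 and 1.46 TPM, and Dnah9 at 1.63 and 1.84 TPM against 12.3 and 4.50 TPM. Dnah12, an inner arm heavy chain, was at 0.03 and 0.01 TPM against 3.59 and 1.24 TPM. Each of these 5 genes had its lowest heterozygous value above its highest wild type value. The 12 dynein assembly factors, cytoplasmic proteins that preassemble the arms, had 9 members above wild type in both heterozygous libraries and 0 below (median 1.14). Zmynd10 stood at 0.67 and 1.38 TPM against 32.7 and 7.03 TPM, and Dnaaf1 at 0.17 and 0.10 TPM against 4.80 and 1.57 TPM.

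The radial spoke, central pair and nexin-dynein list had 40 members, and 37 of them lay above wild type in both heterozygous libraries (median 1.42). Rsph1, a protein of the spoke head, stood at 1.05 and 1.43 TPM against 75.9 and 15.7 TPM, and Rsph4a, another, at 0.07 and 0.09 TPM against 20.98 and 6.30 TPM. Their log2 differences were 4.01 and 3.55, with limma adjusted p-values of 0.131 and 0.107. Both were near the floor in wild type and clearly present in either heterozygous library. Spag16, of the central pair, stood at 0.17 and 0.21 TPM against 8.95 and 2.44 TPM. Ccdc39, a ruler protein of the doublet repeat, was already present in wild type, at 12.3 and 11.4 TPM against 39.2 and 15.1 TPM. Hydin, a very long central pair gene, was at 1.75 and 1.43 TPM against 4.93 and 2.09 TPM. The last of these stood only slightly apart, so the list was not uniform in size of difference.

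The list of doublet proteins and tektins also held other genes of ciliated cells, among them Lrrc23 and Tmem212. Its median is therefore not that of doublet proteins alone. It gave the highest median of the 5 lists, 1.97 over 54 members, of which 50 lay above wild type in both heterozygous libraries and 0 below. Tekt1, a filament protein of the doublet, stood at 3.16 and 2.65 TPM against 36.2 and 9.05 TPM. Cfap52, an inner protein of the doublet, stood at 0.32 and 0.17 TPM against 24.3 and 6.63 TPM. Ak7, a cilium-associated adenylate kinase, stood at 0.31 and 0.05 TPM against 24.5 and 6.14 TPM. In all of them the first heterozygous library was the highest and the second lay between it and wild type. Pifo, Dmkn, Lrrc74b and Lrrc23 were among the 12 genes with the widest upward gap. Pifo, a gene of cilium assembly and disassembly, stood at 0 and 0.54 TPM against 39.5 and 10.2 TPM. Lrrc23, a radial spoke protein, stood at 1.24 and 2.32 TPM against 98.5 and 20.6 TPM. Dmkn, known as a secreted protein of skin, stood at 0.10 and 0.33 TPM against 32.4 and 10.03 TPM. Lrrc74b, a leucine-rich repeat gene, stood at 0.08 and 0.06 TPM against 18.5 and 6.63 TPM. In all, 30 of the 14466 tested genes were under 1 TPM in both wild type libraries and at least 5 TPM in both heterozygous ones. Of these 30, 14 were in these 5 lists, which held 138 of the tested genes. All 30 passed the filter through their heterozygous values, and the reverse count was not made.

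Promoters of the cilia genes were searched for the X-box, the motif bound by RFX factors, spelled as GTNNCC, then NNN, then GNNAC, and read on both strands of the 250 bases before the RefSeq start (GRCm38.p6). A match is a description of the letters and does not show binding. Of the 80 tested cilia genes with an upward gap of at least 1.5-fold, 60 had a promoter in the table and 15 of these held a match (25.0%). Of all tested cilia genes 111 had a promoter, and 21 of these held one (18.9%). Among all 10791 tested genes with a promoter 4.62% held one, and among all 27025 promoters 3.78%. None of the 19 promoters of genes with a downward gap of 1.5-fold held one, and neither did the 9 available promoters of the 12 genes with the widest upward gap. The forkhead letters TGTTTAC were in 6.67% of the 60 promoters and in 2.03% of those of tested genes. Shown here are the matches of the 6 genes with the widest gaps among the 15 cilia genes that held the X-box. They are a centriole amplifier (Deup1), a spoke adaptor (Cfap206), a central pair gene (Spag16), an inner doublet protein (Cfap45) and 2 further axonemal genes (Cfap44 and Odf3b). Each is written 5′ to 3′ on the strand that holds the match, with the X-box in capitals.

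Odf3b, chr15:89379280-89379309: gttttccgGTGCCCTGGGATACgcgttagc
Cfap45, chr1:172521103-172521129: gacgcGTTACCATAGCAACccaagaac
Cfap206, chr4:34730208-34730237: cgcgttccGTTTCCACGGTTACgcgactgc
Deup1, chr9:15627912-15627941: gaggccgcGTCTCCATGGCAACccactggg
Cfap44, chr16:44394764-44394793: ttactgcgGTTGCCATAGCAACgtccctcc
Spag16, chr1:69826859-69826888: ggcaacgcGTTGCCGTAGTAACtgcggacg

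Odf3b, Cfap206 and Deup1 are on the minus strand of the genome and the others on the plus strand. The matches in Odf3b, Cfap206 and Deup1 read on both strands and are shown on that of the gene, the one in Spag16 reads on the strand of the gene, and those in Cfap45 and Cfap44 read on the strand opposite to the gene. They began 47 bases before the start in Odf3b, 23 in Cfap206, 87 in Deup1, 103 in Spag16, 19 in Cfap45 and 27 in Cfap44. Odf3b stood at 0.67 and 0.69 TPM against 20.5 and 6.41 TPM, and Cfap45 at 0.24 and 0.68 TPM against 19.99 and 5.42 TPM. Cfap206 stood at 0.60 and 0.80 TPM against 26.03 and 5.54 TPM, and Cfap44 at 0.99 and 1.64 TPM against 29.3 and 7.38 TPM. All of these 6 genes had both heterozygous libraries above both wild type libraries.

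Choroid plexus genes stood high in the first heterozygous library and much lower in the second. Of the 30 members in the table, 24 were at least 2-fold above the other 3 libraries in heterozygous replicate 1 alone, where 1.31% of all rows of the table were. Their summed level was 468 and 319 TPM for wild type against 13008 and 433 TPM for heterozygous tissue. Of the defining markers, Aqp1, a water channel, stood at 0.60 and 0.75 TPM against 64.3 and 0.75 TPM. Folr1, a folate receptor, stood at 0.40 and 0.20 TPM against 89.8 and 3.43 TPM. Clic6, a chloride channel protein, stood at 0.66 and 0.27 TPM against 66.3 and 0.64 TPM, and Kl, which encodes Klotho, at 0.43 and 1.06 TPM against 8.59 and 1.47 TPM. Otx2, a transcription factor of this epithelium, stood at 0.50 and 0.39 TPM against 52.4 and 1.23 TPM. Kcne2, a potassium channel subunit, and Prr32 were not in this list and are named for their excess in heterozygous replicate 1. Kcne2 stood at 0.22 and 0.05 TPM against 64.5 and 0.30 TPM, and Prr32 at 0 and 0 TPM against 31.8 and 0.08 TPM. In the second heterozygous library Aqp1 and Clic6 were within the range of wild type or just at its edge, and Folr1 stood furthest above it.

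The second heterozygous library was above both wild type libraries for 125 of the 150 cilia genes and for 16 of the 30 choroid plexus genes, where 16.8% of all rows of the table were. Averaged over the list on log2(TPM + 1), the choroid plexus genes lay 3.36 above wild type in the first heterozygous library and 0.36 above it in the second. For the doublet list the same averages were 2.73 and 1.43. Cilia genes were also higher in the first library: 90 of the 150 reached 2-fold above all 3 others there. Without that library the median log2 difference over tested members was 0.13 for regulators, 0.82 for dynein arms and 0.61 for assembly factors. It was 0.88 for the radial spoke list, 1.35 for the doublet list and 0.18 for choroid plexus genes. Without the second heterozygous library these medians were 0.65, 2.17, 1.65, 2.13, 2.88 and 3.24, in the same order. The filter that kept these members used both heterozygous libraries. How much of the cilia difference goes with choroid plexus RNA was not tested.

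**Figure D3:**
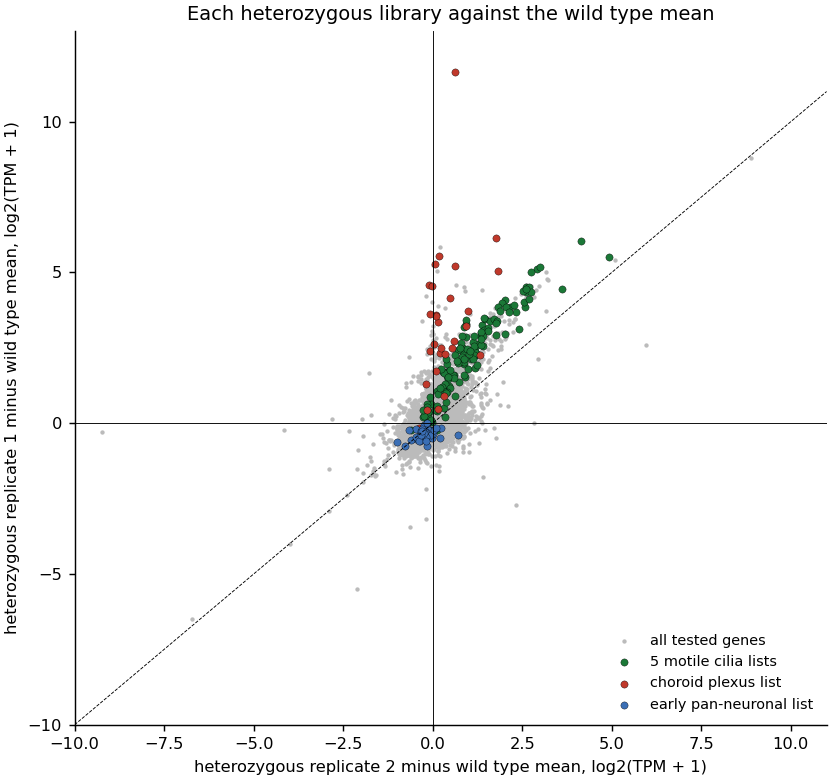
Each tested gene by its log2(TPM + 1) difference from the wild type mean in heterozygous replicate 2 (horizontal) and replicate 1 (vertical), with the dashed line marking equal differences. Both axes share the same wild type libraries. Choroid plexus genes (red) spread upward near 0 on the horizontal axis, with averages of 3.36 and 0.36, and cilia genes (green) lie mostly to the right of 0 and above the line.

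In all, 407 tested genes (2.81%) were at least 2-fold above the other 3 libraries in heterozygous replicate 1, and 8 (0.0553%) were so in replicate 2. In the opposite direction 10 genes (0.0691%) were at least 2-fold below the others in replicate 1 and 14 (0.0968%) in replicate 2. Leaving aside pseudogenes and predicted genes, the 8 genes averaging at least 5 TPM with the largest excess in replicate 2 were a different set, since only Cort among them reached 2-fold. Cort, the neuropeptide cortistatin, stood at 3.41 and 9.73 TPM against 9.55 and 24.3 TPM. Cpne6, a calcium-binding copine of hippocampal neurons, stood at 5.48 and 17.8 TPM against 6.85 and 36.2 TPM, and Itpka, an inositol phosphate kinase of dendritic spines, at 7.54 and 15.1 TPM against 12.7 and 26.3 TPM. In each of these the second wild type library was also higher than the first. Rps18, a ribosomal protein gene, stood at 897 and 61.2 TPM against 1034 and 1829 TPM, and its wild type libraries were further apart than its heterozygous ones. H2-T22, Cpne7, Gpr37l1 and Rasgrf1, each under 2-fold, complete the 8.

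Genes lower in heterozygous tissue were mostly shifted by less than the gap of 1.5-fold, and none of those named from here on passed the limma threshold. Among the 12 with the widest downward gap, Klhl35, a kelch family gene, stood at 28.01 and 17.6 TPM against 5.94 and 6.56 TPM (log2 difference -1.68, limma adjusted p = 0.131). Crabp1, which binds retinoic acid in the cytoplasm, stood at 134 and 94.97 TPM against 58.9 and 56.8 TPM, a log2 difference of -0.95. Cyp26b1, an enzyme that degrades retinoic acid, stood at 28.3 and 16.2 TPM against 6.32 and 10.1 TPM. In all of these the groups were apart, and for Klhl35 and Crabp1 the heterozygous pair was the tighter one. Dpf3, a subunit of the BAF chromatin remodelling complex, stood at 53.8 and 45.2 TPM against 23.2 and 27.96 TPM. Sstr2, a somatostatin receptor, stood at 118 and 95.3 TPM against 49.5 and 62.4 TPM. Both had the first heterozygous library lowest, and their groups were apart. Kcp, a secreted modulator of BMP signals, stood at 16.03 and 15.2 TPM against 9.02 and 7.96 TPM. Slco5a1, a solute carrier, stood at 17.9 and 14.8 TPM against 9.30 and 8.30 TPM. Ifi203, an interferon-inducible gene of a family with close copies, stood at 55.8 and 35.3 TPM against 21.4 and 22.7 TPM. Pagr1a and CU041251.5 also belong to the group, as does Sox11, and Pagr1a ranged from 1.19 to 23.4 TPM over the 4 libraries. The Sox letters ACAAAG, on either strand, were in 5 of the 19 available promoters of genes with a downward gap of 1.5-fold (26.3%) and in 12 of the 60 promoters of the cilia genes with an upward gap (20%), against 11.7% of tested genes and 16.5% of all promoters. Among the genes just named the promoters of Klhl35, Kcp and Ifi203 held them.

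**Figure D4:**
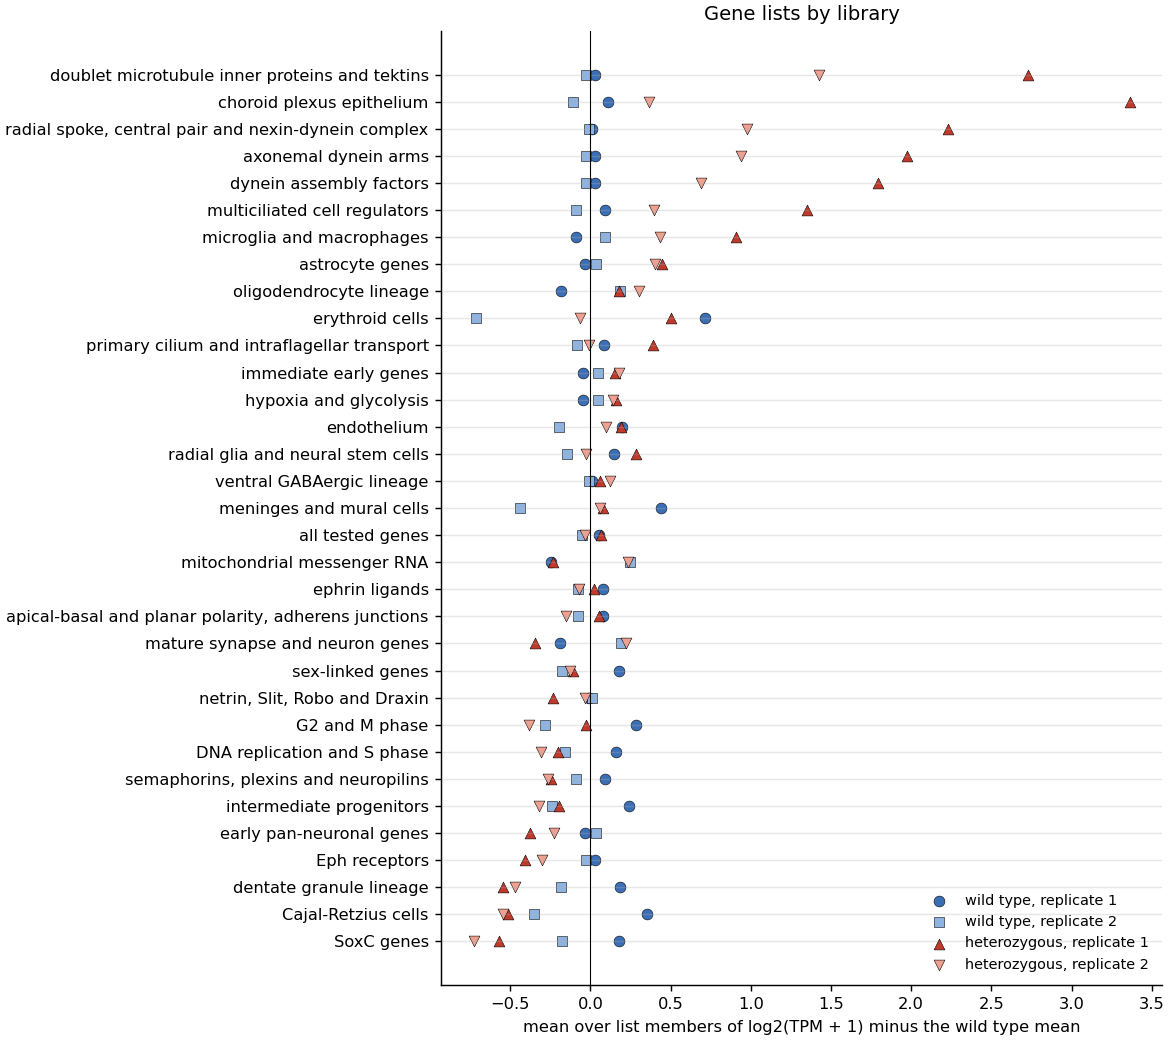
Average of each gene list in each of the 4 libraries, as the mean over members of log2(TPM + 1) minus the wild type mean, with lists ordered from the highest to the lowest heterozygous average. The doublet list lies at 2.73 and 1.43 in the heterozygous libraries and the dentate granule list at -0.55 and -0.47.

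Most genes of the dentate granule lineage list stood lower. Of 22 members, all of them tested, 17 lay below wild type in both heterozygous libraries and 0 above, where 29.1% and 16.9% of tested genes did, and the median log2 difference was -0.54. Prox1, whose 4 values are given above, had a log2 difference of -1.05 (limma adjusted p = 0.241). Neurod1, a proneural factor of granule cells, stood at 392.4 and 234 TPM against 157 and 182 TPM. Nfib, a nuclear factor of hippocampal development, stood at 287 and 222 TPM against 141 and 162 TPM. For both genes the first wild type library was the highest of the 4, and the lower wild type library remained above both heterozygous ones. Lef1, a transcription factor of Wnt signalling needed for granule cells, stood at 23.1 and 14.5 TPM against 10.7 and 9.65 TPM. Zbtb20, a hippocampal zinc finger factor, stood at 161 and 136 TPM against 95.95 and 101 TPM. The averages of this list were 0.18 and -0.18 in the wild type libraries, which shows the spread inside that group, and the median was -0.37 without wild type replicate 1.

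Cajal-Retzius genes, which mark the early neurons at the hem and marginal zone, had 15 members in the table. Of these, 9 lay below wild type in both heterozygous libraries and 0 above, where 14.3% and 9.63% of all rows of the table did. Among the 14 tested members 8 lay below and 0 above, against 29.1% and 16.9% of tested genes. The median was -0.55. It was -0.13 without wild type replicate 1 and -0.93 without wild type replicate 2. Reln, at the values above, had a log2 difference of -0.89 (SE 0.31, limma adjusted p = 0.319). The first wild type library was far above the other 3, which were closer together. Calb2, the calcium-binding protein calretinin, stood at 454 and 300.1 TPM against 217 and 248 TPM. Reln and Calb2 are also members of the dentate granule list, so the counts of these lists are not separate. Tbr1, a T-box factor of early glutamatergic neurons, stood at 93.9 and 61.2 TPM against 44.9 and 43.4 TPM. Intermediate progenitors had 17 members, with 7 below wild type in both heterozygous libraries, 0 above and a median of -0.29. Among the 16 tested members 6 lay below and 0 above, where 29.1% and 16.9% of tested genes did. The count below was thus not far from the share of all tested genes. The median over tested members was -0.02 without wild type replicate 1 and -0.57 without wild type replicate 2. Eomes, their defining T-box factor, stood at 90.1 and 52.6 TPM against 50.5 and 53.2 TPM, where the second wild type library fell inside the heterozygous range. Neurog2, a proneural factor, stood at 56.9 and 41.5 TPM against 40.8 and 35.6 TPM.

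Early pan-neuronal genes were lower in 25 of 40 members in both heterozygous libraries and higher in 0, where 29.1% and 16.9% of tested genes were, with a median of -0.29. Dcx, which binds microtubules in migrating neurons, stood at 388 and 391 TPM against 284 and 296 TPM. Tubb3, a neuronal tubulin, stood at 1471 and 1728 TPM against 1227 and 1274 TPM. Rbfox1, a neuronal splicing factor, stood at 135 and 145 TPM against 97.8 and 101 TPM. For Dcx and Rbfox1 both pairs were tight, while the wild type values of Tubb3 lay further apart. The genotypes were apart in all 3 genes, and the limma adjusted p-values were 0.281, 0.303 and 0.159. Islr2, a membrane protein of growing axons, stood at 862 and 701 TPM against 465 and 454 TPM, a log2 difference of -0.76.

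Eph receptors and the semaphorin pathway were mainly on the lower side, and ephrins were not. For comparison, 29.1% of tested genes lay below wild type in both heterozygous libraries and 16.9% above. Eph receptors, which answer ephrins at cell contacts, had 14 members in the table, 8 below wild type in both heterozygous libraries and 2 above, with a median of -0.26. Epha4 stood at 256 and 243 TPM against 143 and 164 TPM, a log2 difference of -0.70 (limma adjusted p = 0.131). Ephb2 stood at 78.8 and 65.04 TPM against 42.2 and 46.9 TPM. Of the 8 ephrin ligands 1 lay below in both heterozygous libraries and 0 above, and the median was 0.02. Of 31 semaphorins, plexins and neuropilins 17 lay below and 2 above (median -0.31). Nrp2, a co-receptor for semaphorins, stood at 169 and 161 TPM against 91.7 and 116 TPM. Plxna2, a plexin receptor, stood at 96.4 and 75.6 TPM against 54.03 and 54.9 TPM. Among the ligands of this list, the semaphorins Sema4c, at 57.8 and 46.4 TPM against 30.6 and 31.5 TPM, and Sema6d, at 89.4 and 65 TPM against 45.7 and 46.4 TPM, were also lower in both heterozygous libraries. The netrin, Slit, Robo and Draxin list had 9 of 21 below and 1 above (median -0.18). Draxin, a secreted repellent, stood at 122 and 96.99 TPM against 72.7 and 66.7 TPM, and Dcc, the netrin receptor, at 51.1 and 39.4 TPM against 32.4 and 34.3 TPM.

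Progenitor and cell cycle lists differed in how many members were apart. The S phase list had 24 of 45 members below wild type in both heterozygous libraries and 0 above (median -0.26), against 29.1% and 16.9% of tested genes, and its median was -0.09 without wild type replicate 1. Mcm7, part of the helicase that opens DNA for copying, stood at 101 and 73.2 TPM against 66.3 and 59.3 TPM, and Nasp, a histone chaperone, at 195.3 and 156 TPM against 131 and 131 TPM. The G2 and M phase list had 6 of 53 below and 1 above (median -0.21), and its median turned to 0.08 without wild type replicate 1. Its wild type averages of 0.29 and -0.29 lay on either side of the heterozygous value of -0.03 and above the other, -0.39. Radial glia genes had 10 of 28 above and 2 below (median 0.20), or 9 and 2 of the 27 tested. Hes1, a target of Notch signalling that maintains progenitors, stood at 9.07 and 8.72 TPM against 12.9 and 11.7 TPM, and Ednrb, an endothelin receptor of radial glia, at 43.7 and 48.5 TPM against 72.8 and 61.4 TPM. The median of the radial glia list over tested members turned to -0.04 without the first heterozygous library.

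Products of polarity and adherens junction genes hold the neuroepithelium together at its ventricular face. Of 50 such genes 20 lay below wild type in both heterozygous libraries and 5 above (median -0.08). The counts were the same among the 49 tested members, where 29.1% and 16.9% of tested genes did so. Afdn, an adaptor of nectin junctions, stood at 129.7 and 113 TPM against 90.6 and 85.7 TPM. Nectin1, an adhesion receptor that Afdn binds, stood at 37.7 and 30.2 TPM against 15.8 and 22.7 TPM. Both were lower in either heterozygous library. Crb2, an apical determinant, stood at 3.03 and 2.42 TPM against 16.2 and 4.37 TPM, on the upper side and highest in the library with the most choroid plexus RNA. The 46 members of the primary cilium and intraflagellar transport list had 17 above and 2 below (median 0.19). Its median was 0.38 in the first heterozygous library and 0.00 in the second over tested members. Ift172, of the transport complex, stood at 18.1 and 15.7 TPM against 27.2 and 17.3 TPM, and the second heterozygous value lay inside the wild type range.

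Microglia and astrocyte genes were mostly on the upper side in both heterozygous libraries. Of 28 microglia and macrophage genes 24 lay above wild type in both and 0 below, where 9.63% and 14.3% of all rows of the table did, with a median of 0.76. Csf1r, the growth factor receptor these cells need, stood at 14.7 and 16.6 TPM against 33.5 and 25.2 TPM (log2 difference 0.86, limma adjusted p = 0.181). Tyrobp, a signalling adaptor, stood at 23.4 and 28.3 TPM against 68.4 and 43.1 TPM. Fcgr3, an antibody receptor, stood at 8.19 and 12.5 TPM against 31.2 and 20.3 TPM. These 3 were highest in the first heterozygous library, and the second was still above both wild type values. Aif1, a defining marker of these cells, did not keep the genotypes apart, at 6.44 and 10.7 TPM against 14.9 and 6.31 TPM. C1qa, a complement subunit, stood at 32.2 and 33.9 TPM against 73.8 and 46.7 TPM. P2ry12, a receptor of resident microglia, stood at 16.1 and 23.5 TPM against 31.7 and 31.9 TPM, with both heterozygous values above wild type. The list averaged 0.91 and 0.43 in the heterozygous libraries, its median over tested members was 0.44 without heterozygous replicate 1, and the part of other cells in this difference was not tested.

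Astrocyte genes had 14 of 20 above and 0 below (median 0.42), where 16.9% and 29.1% of tested genes did so. Apoe, a lipid carrier of glia and macrophages, stood at 830.4 and 1107 TPM against 2000.5 and 1666 TPM, a log2 difference of 0.93 (limma adjusted p = 0.157). Gja1, a gap junction protein, stood at 52.1 and 48.3 TPM against 77.4 and 77.6 TPM. Mlc1, a membrane protein of astrocytic endfeet, stood at 83.1 and 76.8 TPM against 159 and 119.7 TPM. Gja1 and Mlc1 were tight in wild type, and Gja1 was tight in both genotypes. Clu, a secreted chaperone also made by choroid plexus, stood at 83.7 and 96.6 TPM against 396 and 153 TPM. Aqp4, the endfoot water channel, stood at 42.8 and 42.98 TPM against 43.8 and 71.3 TPM, with 1 heterozygous library apart from the rest. Oligodendrocyte lineage genes went both ways. Of the 18 members 7 lay above and 1 below (median 0.16), against 9.63% and 14.3% of all rows, and 5 of the 16 tested had a negative log2 difference. The list averaged 0.18 and 0.30 in the heterozygous libraries and -0.19 and 0.19 in wild type, so its averages overlapped. Olig1, a lineage factor, stood at 75.8 and 119 TPM against 165 and 166 TPM, Sox10, another, at 8.42 and 10.7 TPM against 16.2 and 15.4 TPM, and Pdgfra, a growth factor receptor of the precursors, at 26.8 and 27.9 TPM against 41.6 and 39.3 TPM. Mog, a myelin glycoprotein and the 1 member below in both, stood at 1.90 and 2.03 TPM against 1.51 and 0.72 TPM.

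The remaining lists are given by their counts, to be read against 9.63% of all rows of the table above and 14.3% below, or 16.9% and 29.1% of tested genes. Hypoxia and glycolysis genes had 8 of 28 above and 4 below (median 0.07). Car9, a carbonic anhydrase, stood at 0.04 and 0.05 TPM against 2.95 and 1.51 TPM, Egln3, an oxygen-sensing hydroxylase, at 5.05 and 4.67 TPM against 11.9 and 9 TPM, and Ankrd37 at 3.32 and 3.73 TPM against 6.23 and 6.55 TPM. Immediate early genes had 7 of 20 above and 0 below (median 0.25). Ventral GABAergic genes had 5 of 22 above and 1 below (median 0.07), and mature synapse genes 0 of 34 above and 7 below (median -0.03). Endothelial genes had 5 of 20 above and 0 below (median 0.04), and genes of meninges and mural cells 3 of 28 above and 1 below (median 0.06). Erythroid genes had 1 of 11 in each direction (median -0.04), and their summed level was 774 and 292 TPM in wild type against 591 and 400.5 TPM in heterozygous tissue, so blood RNA overlapped between the genotypes. Mitochondrial messenger RNA had 0 of 13 apart in either direction. Of 4 sex-linked genes 2 lay below and 0 above.

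Genes beside Sox11 on chromosome 12 were described because a floxed allele brings its neighbouring chromosome segment with it. Within 2 Mb of the Sox11 start 8 other genes were tested, and 6 of them lay below wild type in both heterozygous libraries (75%). From 2 to 10 Mb away 38 of 77 did (49.4%), on the rest of the chromosome 130 of 456 did (28.5%), and among all tested genes 29.1% did. Many of the lower rows at 2 to 10 Mb were pseudogenes or had clone or predicted-gene symbols. They include all 5 with a downward gap of 1.5-fold, such as AC166358.6, at 15.9 and 14.8 TPM against 7.89 and 7.5 TPM. How reads were shared among such rows was not tested. The median log2 difference was -0.20 in each of the nearer windows and -0.07 on the rest of the chromosome. Dcdc2c, a doublecortin domain gene, stood at 7.23 and 5.58 TPM against 3.75 and 2.60 TPM. Rnf144a, a ubiquitin ligase, stood at 50.4 and 39.4 TPM against 33.5 and 32.1 TPM, and Rnaseh1, a nuclease of RNA in hybrids with DNA, at 14 and 11.5 TPM against 9.19 and 10.2 TPM. These genes were lower in both heterozygous libraries, as were Trappc12, at 28.9 and 28.7 TPM against 26.3 and 23.6 TPM, and Tssc1, at 25.7 and 27.9 TPM against 23.5 and 23.3 TPM. The sixth of them is Rps7, whose reads are shared with Gm6472 and whose sum with it was higher in both heterozygous libraries. Cmpk2, a nucleotide kinase induced by interferon, lay on the other side, at 15.1 and 17.2 TPM against 18.2 and 19.2 TPM. Further out, Kidins220, a membrane scaffold protein of neurons, stood at 179 and 164 TPM against 125 and 133 TPM, and Klf11, a Kruppel-like factor, at 14.4 and 13.3 TPM against 8.97 and 9.14 TPM. The 2 genes highest above 0 in the same segment were cilia-associated, with Cdhr3, a cadherin of multiciliated cells, at 0.03 and 0.11 TPM against 6.25 and 2.57 TPM, and Efcab10 at 0.31 and 0.46 TPM against 8.18 and 2.68 TPM. None of these neighbours passed the limma threshold, and an effect of the allele cannot be told apart from one of the segment or strain around it with these libraries.

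**Figure D5:**
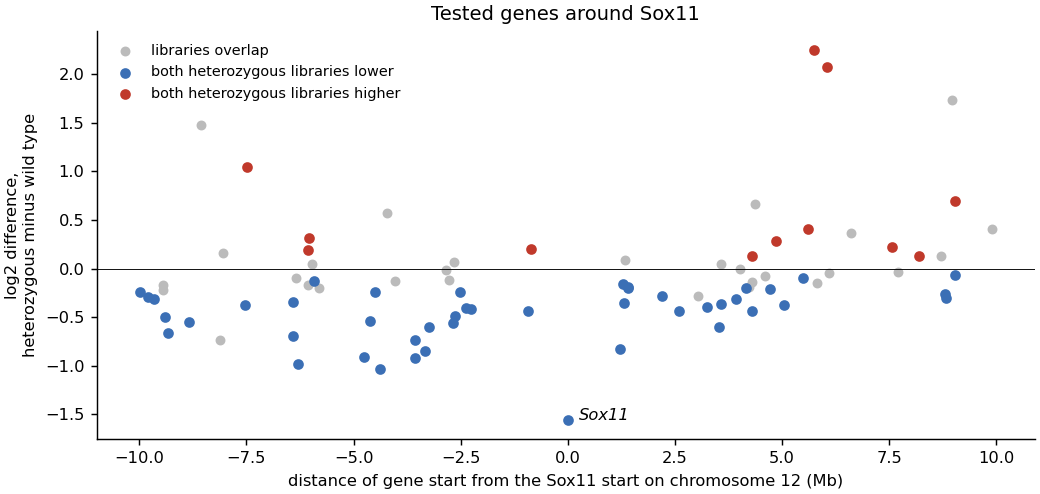
Log2 difference between heterozygous and wild type tissue for tested genes within 10 Mb of Sox11, against distance from the Sox11 start in Mb. Blue points have both heterozygous libraries below both wild type libraries and red points have both above. Blue points make up 6 of the 8 genes within 2 Mb of Sox11, and Rps7, whose reads are shared with Gm6472, is among them.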

How the data were processed

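RNA from dentate neuroepithelium of 3 genotypes was sequenced, 2 libraries each. The authors deposited 1 table of TPM values per gene for all libraries. Per the submitters' processing notes, FastQC and RSEM were used with mm10 (GRCm38). The series' design text names TopHat 2.0.11 and Cufflinks 2.2.1 with RefSeq transcripts, and which of these made the table is not settled here. TPM are scaled to a common total, so a very abundant transcript lowers all others, and depth is lost. TPM are not counts, so no count model was used.

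Values of genes that averaged 1 TPM or more in the 4 libraries were taken to log2(TPM + 1) and fitted with limma 3.58.1 (R 4.3.3) on all 6 libraries, with a term per genotype, a mean-variance trend and Benjamini-Hochberg adjustment over 14466 genes at 0.05. The fit was checked on simulated data of this comparison with 14466 genes. There 62% of genes changed 2-fold and 83% of those changed 4-fold were recovered, and 7 of 152 calls were false. The real fit called 5 genes in all. Foxj1 and Dynlrb2, with log2 differences of 3.89 and 5.09, missed the threshold (limma adjusted p = 0.144 and 0.105). The simulated shares are therefore not taken as the power for the genes described here. Fold changes on this scale understate those of low genes. Identifiers were matched to GENCODE vM21 (34924 of 35274 rows), and promoters came from RefSeq (GRCm38.p6).

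Named genes were Sox11, Sox4, Sox12, Ttr, genes past the threshold, the 12 with the widest gap in each direction and the 8 with the largest excess in 1 heterozygous library at a mean of at least 5 TPM, leading and defining members of 32 gene lists, and genes within 2 Mb of Sox11. Only part of the genes under this rule are described, and some are not reported here. Further list members, cilia genes with an X-box and chromosome 12 genes were named after their values were seen. Members and lists were chosen with earlier results of these data known, and list results are counts and medians with no test. Alternatives covered the pseudocount, filter, libraries, scaling, replicate block, variance prior and each library left out. With a library left out, its genotype has no replicate and the spread comes from the other genotypes. The p-values and counts of such fits therefore do not measure spread within that genotype.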

Additional observations from a re-analysis of the deposited data

How the results depend on the processing

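The 4 higher genes and 1 lower gene by limma became 46 and 3 (49 in all) with a pseudocount of 0.1, 2 and 1 (3 in all) with a pseudocount of 5, and 2 and 1 (3 in all) with no filter. Genes apart by 1.5-fold, 316 higher and 40 lower, became 78 lower with a pseudocount of 0.1, 113 higher and 11 lower with one of 5, and 133 higher with a mean of at least 5 TPM. Leaving out each library in turn gave 1 to 376 higher and 0 to 14 lower calls, 1 to 390 in all, with the fewest without wild type replicate 1 and the most without heterozygous replicate 2. Genes apart ranged from 316 to 1082 higher and from 40 to 467 lower. Leaving out a library can only keep or widen a gap, so these numbers could not fall. Sox11 ranged from -1.84 (without wild type replicate 2) to -1.28 (without wild type replicate 1), and was -1.58 with a pseudocount of 0.1 (limma adjusted p = 0.0331) and -1.48 without heterozygous replicate 2. With 1 library left out, Sox4 ranged from -0.454 to 0.0121, Cpne6 from -0.49 to 1.75, Aif1 from -0.353 (without heterozygous replicate 1) to 0.771, the GABAergic median from -0.0318 to 0.152 and the hypoxia median from -0.0175 to 0.173. The cause of these changes was not tested, beyond the number of libraries left.

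Chosen after seeing the data, 2 further alternatives were run. Without the 2 libraries with the most Ttr there were 137 higher and 19 lower calls (156 in all), 135 genes lower by 1.5-fold, and Sox11 at -1.64 (limma adjusted p = 0.00362), with Aif1 at -0.353. The libraries left out there were heterozygous replicate 1 and homozygous replicate 1. Neither floxed genotype then has a replicate, and the spread comes from the wild type pair alone. The counts and the p-value of that fit therefore do not measure spread within the heterozygous group. Whether the larger number of calls has to do with choroid plexus RNA was not tested. With near-identical ribosomal rows summed there were 2 higher and 0 lower calls (2 in all), and Rps7 turned to 0.38. Median ratio rescaling moved the median of all tested genes from -0.06 to 0.01.

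With replicate number as a block, limma called 8 higher and 1 lower gene (9 in all), and Sox11 had an adjusted p of 0.0539. Same-numbered libraries share only a number: their deviations correlated at 0.213 between wild type and heterozygous, -0.087 between wild type and homozygous, and 0.345 between heterozygous and homozygous libraries, so no pairing was used.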
